A study of Homo sapiens with 6 samples.

Results

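The HES and HEY genes, NRARP, BHLHE40 and BHLHE41 are 9 genes described as transcriptional targets of Notch signalling, and they were followed here in 2 human breast cancer cell lines. The genes were chosen by name, with earlier results of these data known. Each of the 9 symbols matched 1 gene of the 61541 in the deposited count table. All 9 had enough counts to be tested, while 5 further HES and HEY family genes, given below, had too few. Of the 9 genes, 4 encode HES proteins (HES1, HES2, HES4 and HES7) and 2 encode HEY proteins (HEY1 and HEYL). The others are NRARP, BHLHE40 and BHLHE41.

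The lines were MDA-MB-231-D3H2LN, abbreviated below as MDA231-LN, and the parental MDA-MB-231, each with 3 bulk RNA-seq libraries of total RNA. MDA-MB-231 is a triple-negative line from a metastatic breast adenocarcinoma, and MDA231-LN, bought from a supplier per the labels, carries luciferase and is known to derive from a lymph node metastasis that formed in mice. Both were grown in high-glucose DMEM with fetal bovine serum, and the labels name no ligand, inhibitor or genetic change for either line. With 1 line on each side of the comparison, lymph node origin cannot be told apart from luciferase, passage in mice or any other difference between them. The series title concerns JAGGED-1, a Notch ligand, in tumor cells, and the comparison addresses how genes downstream of Notch differ between the lines.

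Notch receptors are activated by ligands on neighbouring cells. Cleavage then releases the intracellular domain of the receptor, which joins the DNA-binding protein RBPJ and coactivators of the MAML family at target genes. HES and HEY genes encode basic helix-loop-helix repressors that are among the best known of these targets, and NRARP encodes an ankyrin repeat protein that limits Notch signalling as feedback. BHLHE40 and BHLHE41 encode related repressors, also known as DEC1 and DEC2, which bind E-boxes, take part in the circadian clock and are induced by hypoxia as well.

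The libraries held 17661542 to 18882719 counted fragments in MDA231-LN and 16461578 to 19171017 in the parental line. Levels are given as CPM (counts per 1000000), that is counts scaled to the size of each library with TMM, a method that adjusts for differences in RNA composition. Pairs of libraries of the same line gave 3.73 to 8.47 for chi-square divided by its degrees of freedom, which is above sampling noise, and pairs across the lines gave 84.1 to 98.4, so no library was counted as a repeat of another. The labels do not say whether replicates are separate cultures, so a p-value reflects no more than the spread between these 6 libraries, which may be technical. The 7 markers expected in a triple-negative line such as MDA-MB-231 were VIM, CD44, KRT8, KRT18, KRT19, EGFR and AXL. They summed to 5730 to 5980 CPM in MDA231-LN and 4260 to 4400 CPM in the parental line. Of the 7, 4 were higher in MDA231-LN, 1 did not pass and 2 were lower. The lower ones were EGFR (log2 fold change -0.95 ± 0.06, SE; edgeR adjusted p = 3.82e-13) and KRT18 (-0.33 ± 0.05; edgeR adjusted p = 4.19e-06). The 5 luminal breast markers summed to 17.4 to 20.9 CPM in MDA231-LN and 11.8 to 16.2 CPM in the parental line. EPCAM, at 15.2 ± 2.23 and 13.0 ± 1.95 CPM (SD, n = 3 each), made up most of this and did not pass. FOXA1 (2.63 ± 0.841 and 0.179 ± 0.0677 CPM; edgeR adjusted p = 4.11e-07) and ESR1 (0.951 ± 0.248 and 0.164 ± 0.231 CPM; edgeR adjusted p = 0.00403) were higher in MDA231-LN, at low levels. PGR was at 0 in MDA231-LN and had a mean of 0.0203 CPM in the parental line. Leukocyte markers (5 genes) summed to 0.554 to 0.617 CPM in MDA231-LN and 0.366 to 0.76 CPM in the parental line, with CD3E at 0. PTPRC, with 28 counts in each line, made up most of this. For CD68, 100% of the exonic bases lie inside other genes, so it could not be measured. Fibroblast markers (3 genes) summed to 0.768 to 0.977 and 0 to 0.0609 CPM, with PDGFRA, 69.4% of whose exonic bases lie inside another gene, at 0 in both lines. LUM made up most of this and was higher in MDA231-LN, at low levels (0.825 ± 0.053 and 0.0203 ± 0.0352 CPM; edgeR adjusted p = 4.13e-05). DCN had a mean of 0.0343 CPM in MDA231-LN and was at 0 in the parental line. The 4 endothelial markers summed to 9.84 to 11 CPM in MDA231-LN and 9.63 to 14.9 CPM in the parental line. PECAM1, the main part of this, was at 8.59 ± 0.196 and 9.52 ± 2.26 CPM and did not pass. VWF (0.227 ± 0.262 and 0.728 ± 0.109 CPM; edgeR adjusted p = 0.0406) and KDR (1.45 ± 0.567 and 2.76 ± 0.847 CPM; edgeR adjusted p = 0.0238) were lower in MDA231-LN, and CDH5 had a mean of 0.0541 CPM in MDA231-LN and was at 0 in the parental line. The part of these markers in the results was not tested.

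Of the 9 genes, 7 rose in MDA231-LN and 0 fell. A gene is said to have risen or fallen in MDA231-LN, relative to the parental line, at a Benjamini-Hochberg adjusted p under 0.05 over all 14176 genes tested, by the edgeR quasi-likelihood test. The background is high: 62.8% of all tested genes passed, with 31.6% rising and 31.2% falling. Since the 9 genes were listed with earlier results of these data known, their share beside this background is a description, not a test. At an unadjusted p under 0.05 the number of the 9 genes that were lower was also 0, as it was with DESeq2 and limma-voom. With upper-quartile scaling 60.0% of all calls were rises, against 50.3% with TMM. The median log2 fold change of the 9 genes was 0.86, against 0.02 for all tested genes. The genes that rose were HES1, HES2, HES7, HEYL, NRARP, BHLHE40 and BHLHE41, and HES4 and HEY1 did not pass. Of the risers, 4 differed at least 2-fold, as did 13.0% of all tested genes in that direction, while 7.53% fell at least 2-fold. For 7 genes every MDA231-LN library lay above every parental library, which was so for 33.8% of all tested genes. HEY1 was the 1 gene with every MDA231-LN library below every parental one, as were 32.8% of all tested genes. In bulk RNA, more cells that express a gene and more RNA of it per cell cannot be told apart.

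**Figure D1:**
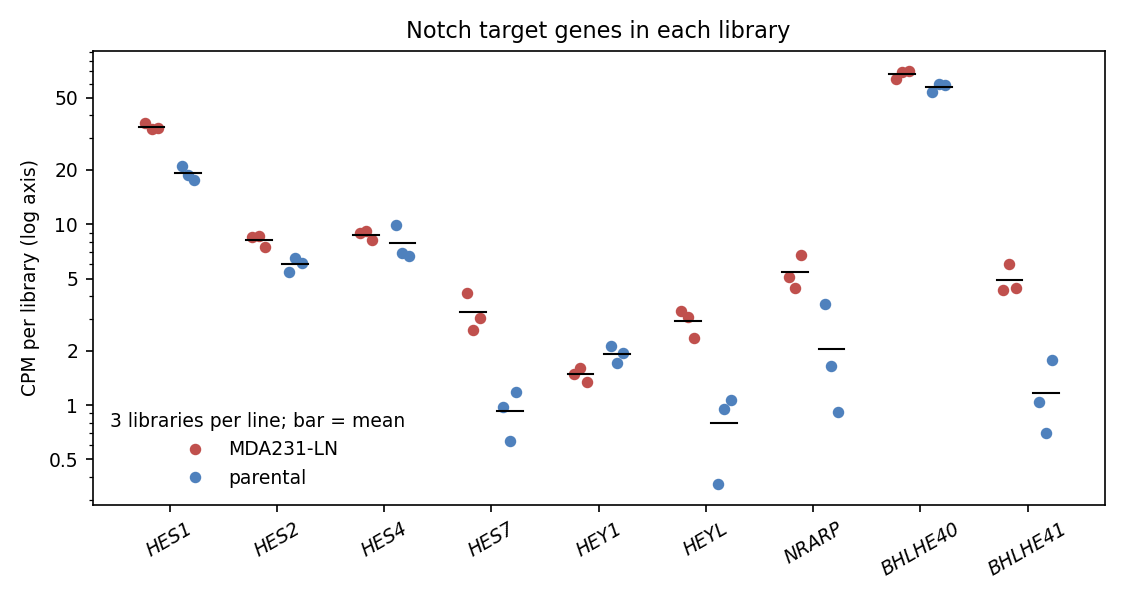
CPM (log axis) of each Notch target gene in the 3 MDA231-LN libraries (left of each pair) and the 3 parental libraries (right), with a black bar at the mean of the line. The libraries of the lines are apart for every gene but HES4, and HEY1 is the gene whose MDA231-LN libraries, at 1.34 to 1.61 CPM, lie below the parental ones.

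The promoter sequences of 4 of these genes are printed because they hold the 6-base core TGGGAA recognised by RBPJ, the DNA-binding partner of Notch. Each is the 250 bases before the transcription start in RefSeq (build GRCh38.p14), written 5′ to 3′ on the gene's strand. Capitals mark TGGGAA or its reverse complement TTCCCA. HES1 is at chr3:194135898-194136147 on the plus strand. HEYL is at chr1:39639644-39639893, HES4 at chr1:1000098-1000347 and BHLHE41 at chr12:26125038-26125287, each on the minus strand.
HES1: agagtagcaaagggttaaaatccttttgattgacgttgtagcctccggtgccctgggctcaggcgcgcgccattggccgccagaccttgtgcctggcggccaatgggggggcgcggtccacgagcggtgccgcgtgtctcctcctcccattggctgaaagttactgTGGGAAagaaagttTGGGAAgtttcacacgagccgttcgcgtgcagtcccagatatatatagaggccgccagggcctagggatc
HEYL: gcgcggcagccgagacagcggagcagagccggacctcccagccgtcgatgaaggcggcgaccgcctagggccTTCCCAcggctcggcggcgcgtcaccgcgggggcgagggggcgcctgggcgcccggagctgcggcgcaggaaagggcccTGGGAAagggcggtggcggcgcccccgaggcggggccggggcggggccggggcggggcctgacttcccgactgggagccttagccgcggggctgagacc
HES4: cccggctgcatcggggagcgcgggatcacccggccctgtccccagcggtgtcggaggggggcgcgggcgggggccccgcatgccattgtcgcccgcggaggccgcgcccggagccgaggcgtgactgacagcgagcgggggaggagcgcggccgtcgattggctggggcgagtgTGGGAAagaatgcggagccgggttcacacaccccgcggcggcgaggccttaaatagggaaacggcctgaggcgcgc
BHLHE41: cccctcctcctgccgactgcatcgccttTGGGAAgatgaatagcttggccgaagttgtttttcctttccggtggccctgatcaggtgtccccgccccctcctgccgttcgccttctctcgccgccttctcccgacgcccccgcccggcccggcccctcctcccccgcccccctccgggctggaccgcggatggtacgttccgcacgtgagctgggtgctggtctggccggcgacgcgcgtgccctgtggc

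In HES1, 2 copies of TGGGAA stood in the same orientation, beginning 84 and 70 bases before the start. HEYL also held 2, in opposite orientations, beginning 178 and 99 bases before its start, while HES4 and BHLHE41 held 1 each, at 76 and 222 bases. Over windows of 300 bases, from 250 before to 50 after the start, TGGGAA on either strand was found in 4 of the 8 genes with a window in the table, against 24.0% of 35116 RefSeq windows. The windows of HES2, HES7, NRARP and BHLHE40 held no match, although these 4 genes rose, and HES4, which held one, did not pass. Only TGGGAA was searched, so other forms of an RBPJ site, in these windows or beside the copies in HES1, are not covered. The E-box CACGTG, the kind of site that BHLHE40 and BHLHE41 proteins bind, was found in the windows of these 2 genes themselves and in none of the remaining windows, against 7.26% of all windows. It contains ACGTG, a form of the core of the hypoxia response element, so matches of these motifs partly coincide. ACGTG was likewise found in the windows of these 2 genes only, against 21.4% of all windows. Other forms of that core were not searched. The HES-type site CACGCG was in 3 of 8 windows (HES1, NRARP and BHLHE41; 11.4% of all) and CACNAG, the N-box, in 4 (HES1, HES2, HES7 and NRARP; 38.0% of all). All motifs were searched on both strands. The share of G and C in the printed stretches of 250 bases ran from 59.2% in HES1 to 79.6% in HEYL. The median of all RefSeq windows, taken over the same 250 bases before the start, was 58.0%. A match is a run of letters and was not tested as a binding site.

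HES1 encodes the repressor through which Notch blocks differentiation genes in many tissues, and by CPM it was the most abundant in both lines of the 4 HES genes described here. It was at 36.3, 33.8 and 33.9 CPM in the MDA231-LN libraries and at 21.1, 18.7 and 17.6 CPM in the parental libraries. All MDA231-LN libraries were high, and the lines were far apart compared with the spread within either. HES1 rose 1.81-fold (log2 fold change 0.86 ± 0.10, SE; edgeR quasi-likelihood, adjusted p = 2.75e-08). The gene lies on chromosome 3 from 194136148 to 194138732 of GRCh38, and no other annotated gene overlaps it.

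HES7, known in mouse for its part in the oscillator that times somite formation, was a low-abundance gene in both lines. It was at 4.15, 2.61 and 3.03 CPM in MDA231-LN and at 0.975, 0.634 and 1.18 CPM in the parental line, where it rested on 10 to 22 counts per library. The lowest MDA231-LN library was above the highest parental one. HES7 rose 3.47-fold (log2 fold change 1.79 ± 0.35, SE; edgeR quasi-likelihood, adjusted p = 7.23e-05). It lies on chromosome 17 from 8120592 to 8124106.

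HES2 is a less studied member of the family. It was at 8.5, 8.65 and 7.45 CPM in MDA231-LN and at 5.42, 6.53 and 6.10 CPM in the parental line. The lines did not overlap, but the gap was narrow. HES2 rose 1.36-fold (log2 fold change 0.45 ± 0.17, SE; edgeR quasi-likelihood, adjusted p = 0.0252). The call was lost without parental replicate 1 (edgeR adjusted p = 0.0927), without MDA231-LN replicate 1 (0.069) or without MDA231-LN replicate 2 (0.0823), and with DESeq2 (0.0649), within a range of 0.00604 to 0.0927 over 14 alternatives. HES2 lies on chromosome 1 from 6412418 to 6424670.

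HES4, a human HES gene with no counterpart in mouse, did not pass. It was at 8.96, 9.15 and 8.22 CPM in MDA231-LN and at 9.87, 6.97 and 6.69 CPM in the parental line. Parental replicate 1 stood above all MDA231-LN libraries, and the other two parental libraries stood below them. The difference was within the spread (log2 fold change 0.16 ± 0.17, SE; edgeR quasi-likelihood, adjusted p = 0.415). Without parental replicate 1 the fold was 1.28 in place of 1.12 and still did not pass (adjusted p = 0.0935). HES4 lies on chromosome 1 from 998962 to 1000172.

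HEYL and HEY1 encode the HEY repressors of this set, of which 1 passed. HEYL, which is expressed in vascular smooth muscle among other tissues, was at 3.33, 3.05 and 2.36 CPM in MDA231-LN and at 0.366, 0.951 and 1.07 CPM in the parental line. Parental replicate 1 was the lowest, with 6 counts. HEYL rose 3.61-fold (log2 fold change 1.85 ± 0.38, SE; edgeR quasi-likelihood, adjusted p = 0.000153). It lies on chromosome 1 from 39623435 to 39639643.

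HEY1, which is known as a Notch target in endothelial cells, was at 1.49, 1.61 and 1.34 CPM in MDA231-LN and at 2.13, 1.71 and 1.93 CPM in the parental line. Each MDA231-LN library was below each parental one, at 26 to 36 counts per library over both lines. The difference did not pass (log2 fold change -0.38 ± 0.35, SE; edgeR quasi-likelihood, adjusted p = 0.351). HEY1 lies on chromosome 8 from 79762371 to 79767857.

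NRARP, the feedback inhibitor, was at 5.12, 4.43 and 6.73 CPM in MDA231-LN and at 3.60, 1.65 and 0.910 CPM in the parental line. The parental libraries were widely spread, and the highest of them came close to the lowest MDA231-LN library. NRARP rose 2.68-fold (log2 fold change 1.42 ± 0.32, SE; edgeR quasi-likelihood, adjusted p = 0.000404). Parental replicate 1 weighed on this value: without it the fold was 4.28 (adjusted p = 5.59e-06), and without parental replicate 3 it was 2.05 (adjusted p = 0.00277). The adjusted p ranged from 8.77e-08 to 0.00826 over 14 alternatives. NRARP lies on chromosome 9 from 137299631 to 137302271.

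BHLHE40 was the most abundant of the 9 genes by CPM, and its difference was the smallest of those that passed. It was at 63.9, 69.7 and 70.1 CPM in MDA231-LN and at 53.9, 59.7 and 58.7 CPM in the parental line. The lines did not overlap, but their libraries lay close together. BHLHE40 rose 1.18-fold (log2 fold change 0.24 ± 0.07, SE; edgeR quasi-likelihood, adjusted p = 0.00508). It lies on chromosome 3 from 4979437 to 4985323, and 29.5% of its exonic bases lie inside BHLHE40-AS1, an antisense gene.

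BHLHE41 had the largest fold of the set over all libraries. Without parental replicate 2, HEYL was higher, at 3.93-fold against 3.46-fold for BHLHE41. BHLHE41 was at 4.35, 6.04 and 4.42 CPM in MDA231-LN and at 1.04, 0.697 and 1.77 CPM in the parental line, where it had 11 to 33 counts per library. All MDA231-LN libraries were high. BHLHE41 rose 4.14-fold (log2 fold change 2.05 ± 0.31, SE; edgeR quasi-likelihood, adjusted p = 2.58e-06). It lies on chromosome 12 from 26120030 to 26125037, and 50.2% of its exonic bases lie inside SSPN. Fragments that touched both genes were left out of the counts in every library, so the level of BHLHE41, and to a lesser degree that of BHLHE40, is understated.

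**Figure D2:**
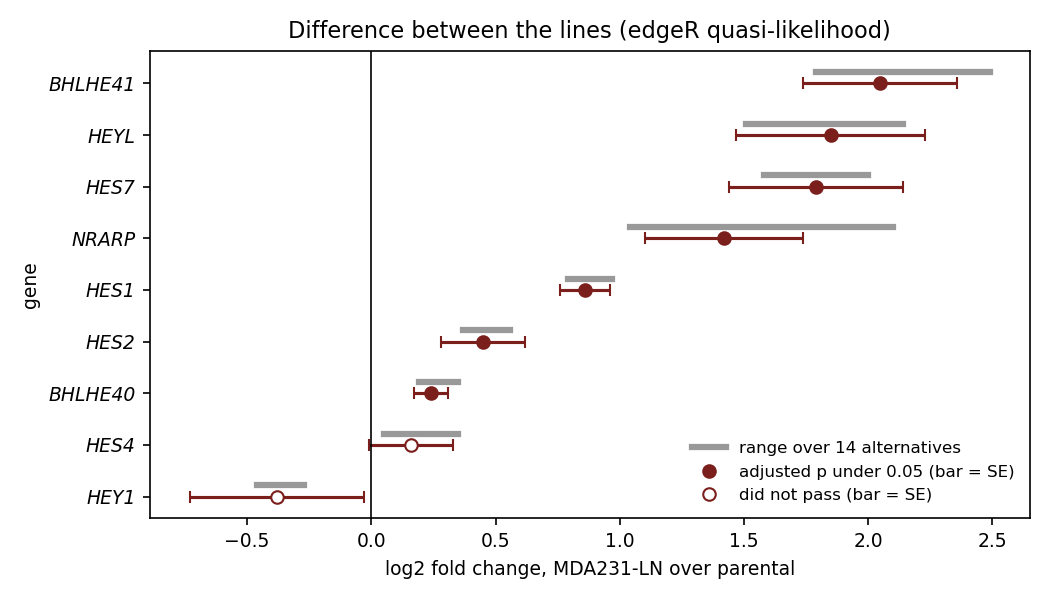
Log2 fold change of each gene, MDA231-LN over parental, with its SE (3 libraries per line), and in grey the range over 14 alternative settings. BHLHE41 (2.05), HEYL (1.85), HES7 (1.79) and NRARP (1.42) lie above a 2-fold difference, and the open points, HES4 and HEY1, did not pass.

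Levels of different genes were compared per kilobase of the counted length, which is the whole gene body with its introns. On that scale HES1 led in MDA231-LN with 13.4 ± 0.536 CPM per kb (SD, n = 3), followed by BHLHE40 with 11.5 ± 0.586 and HES4 with 7.25 ± 0.404, and the libraries of these 3 genes did not overlap. In the parental line BHLHE40 led with 9.76 ± 0.523 CPM per kb, and HES1 (7.41 ± 0.70) and HES4 (6.48 ± 1.45) overlapped. The other 6 genes were at 2.06 CPM per kb or less in MDA231-LN and at 0.777 or less in the parental line. NRARP led these in both lines, overlapping with HES2 in the parental line. BHLHE41 and HES7, which overlapped each other in both lines, were above HES2 and HEY1 in MDA231-LN and had lower means than both in the parental line. Per kilobase of exon BHLHE41 was below HES2 in MDA231-LN as well, with libraries of 1.10 to 1.53 for BHLHE41 and 1.38 to 1.60 CPM per kb for HES2.

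Dividing by the exonic length of GENCODE 29, an alternative chosen after seeing the data, put BHLHE40 (17.7 ± 0.899 CPM per kb) above HES1 (16.8 ± 0.672) in MDA231-LN, with overlapping libraries. The parental order did not change on that scale. HEYL was the lowest of the 9 genes in both lines per kilobase of gene body, at 0.180 ± 0.0306 in MDA231-LN and 0.0491 ± 0.0233 CPM per kb in the parental line, and its body is 16.2 kb long, of which 3.66 kb are exonic. Per kilobase of exon it was at 0.796 ± 0.136 in MDA231-LN, above HEY1 (0.457 ± 0.0420), and at 0.217 ± 0.103 in the parental line, below HEY1 (0.595 ± 0.0652). The libraries of these 2 genes did not overlap in either line.

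**Figure D3:**
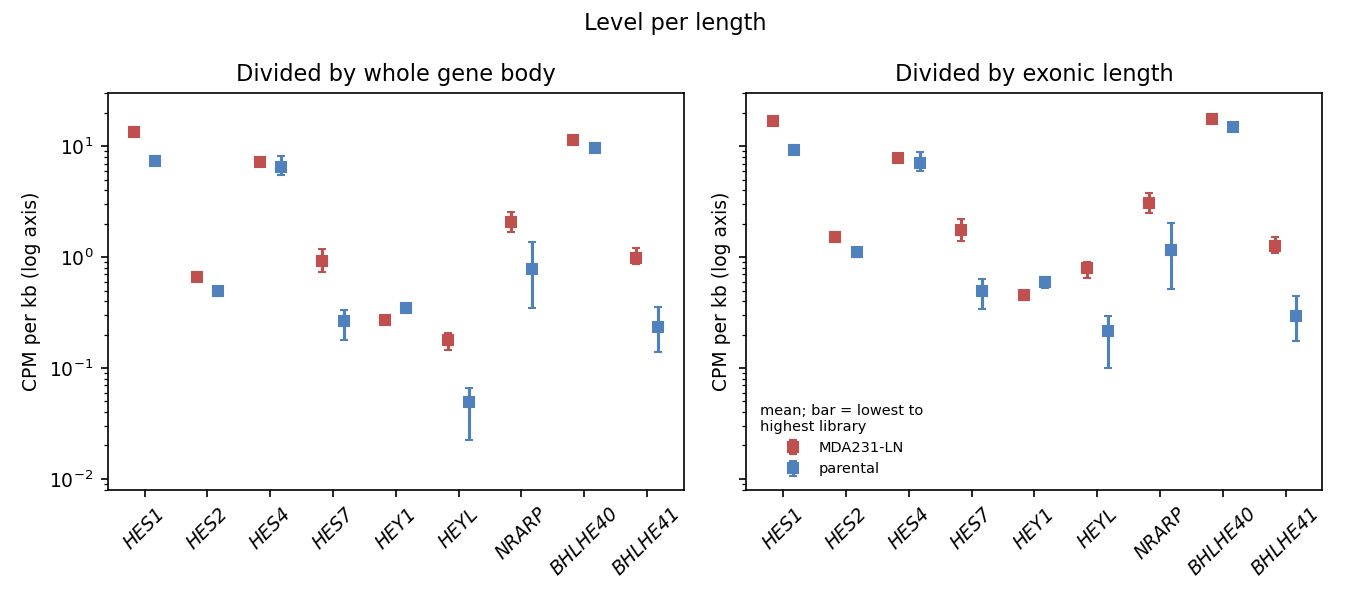
CPM per kilobase (log axis) of each gene in MDA231-LN (left of each pair) and the parental line (right), divided by the whole gene body (left panel) or by exonic length (right panel). Squares are means of 3 libraries and bars run from the lowest to the highest library; HES1, HES4 and BHLHE40 stand above the other 6 genes in both lines and on both scales.

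Summed over the 6 HES and HEY genes, the level was 21.8 to 23.8 CPM per kb of gene body in the MDA231-LN libraries and 13.6 to 17.5 in the parental ones. HES1 made up 58.0% to 60.3% of that sum in MDA231-LN and 46.8% to 51.4% in the parental line. HES4 made up 31.1% to 33.5% in MDA231-LN and 40.7% to 46.7% in the parental line. HES1 and HES4 made up most of the sum of these 6 genes in both lines, and HES6, which could not be measured, is not in it. Per kilobase of exon the share of HES1 was 56.7% to 59.0% in MDA231-LN and 48.0% to 51.4% in the parental line. HES7 and HEYL, whose folds were the largest of this family, stayed small parts of the sum, at most 4.96% and 0.864% per kilobase of gene body in MDA231-LN, and at most 7.22% and 2.96% per kilobase of exon.

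The genomic surroundings of the genes differed between the lines too, and each gene was set beside the other tested genes within 5 Mb on either side. Around HES1, 34 of 50 other genes fell and 4 rose, with a median log2 fold change of -0.55, whereas HES1 itself was at 0.86. Only 6.0% of these neighbours had a log2 fold change above that of HES1. Around BHLHE40 the pattern was alike, with 12 of 26 neighbours falling, 2 rising and a median of -0.44, and BHLHE40 itself at 0.24. Around HEYL, in contrast, 76 of 109 neighbours rose and 8 fell, with a median of 0.46, and HEYL was at 1.85. The part of this regional shift in the HEYL difference was not tested. The medians around the other 6 genes were between -0.06 and 0.22. HES7, NRARP and BHLHE41 were above the log2 fold change of all but 8.77%, 8.16% and 5.41% of their neighbours, and HEY1 was below that of 80.0% of its 20 neighbours. Rises as large as those of HES7, NRARP and BHLHE41 were uncommon anywhere, since 13.0% of all tested genes rose at least 2-fold.

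**Figure D4:**
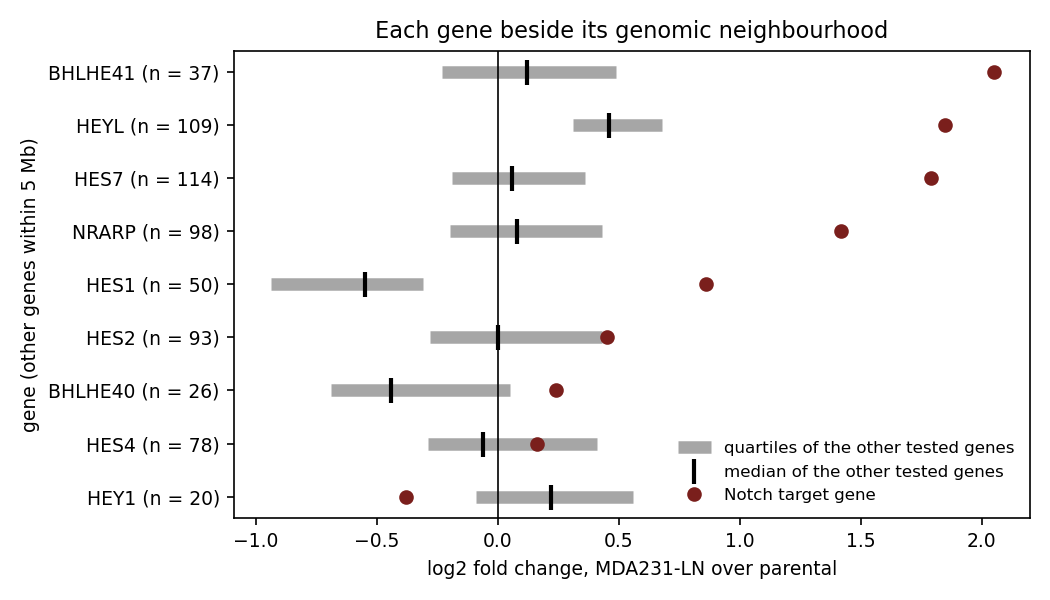
Log2 fold change, MDA231-LN over parental, of each Notch target gene (dot) and the median (black tick) and quartiles (grey bar) of the other tested genes within 5 Mb on either side, with their number. HES1 and BHLHE40 lie above neighbourhoods with medians of -0.55 and -0.44, and HEYL lies above one with a median of 0.46.

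Other genes of the pathway were read from lists chosen by role. HES3, HES5, HES6, HEY2 and HELT, the rest of the family examined, had too few counts to be tested, and HES6, which lies wholly inside another annotated gene, could not be measured. HEY2 had 8, 5 and 0 counts in the MDA231-LN libraries and 0, 1 and 0 in the parental ones, and the lines overlapped. Of 9 ligand and receptor genes, 6 could be tested, of which 4 rose and 2 fell, with a median log2 fold change of 0.70. The 2 that fell, named after their values were seen, were the receptor genes NOTCH1 (-0.22 ± 0.08; edgeR adjusted p = 0.0237) and NOTCH2 (-0.25 ± 0.06; edgeR adjusted p = 0.00185), and 0 of this list fell with upper-quartile scaling. The risers included the ligand genes JAG2 (2.89 ± 0.14, SE; edgeR adjusted p = 5.76e-16) and JAG1 (0.21 ± 0.05; adjusted p = 0.00155) and the receptor gene NOTCH3 (1.18 ± 0.28; adjusted p = 0.000615). DLL1, another ligand gene, had 254 counts in MDA231-LN and 3 in the parental line, a ratio of 75.5 (95% exact counting interval 25.6 to 369). Intervals of this kind cover counting error only, since fragments without molecular identifiers are not independent molecules.

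Of 15 tested genes of the nuclear complex that acts on the targets 8 fell and 3 rose, with a median log2 fold change of -0.19. With upper-quartile scaling, which put the median of all tested genes at 0.129 against 0.017 with TMM, 3 fell, 3 rose and the median of the list was -0.07. The acetyltransferase gene KAT2B was at 27.5 ± 1.36 CPM in MDA231-LN and 66.7 ± 3.19 CPM in the parental line (SD, n = 3 each; log2 fold change -1.28 ± 0.08, SE; edgeR adjusted p = 2.08e-13). The coactivator gene MAML2 fell as well (-1.49 ± 0.09; edgeR adjusted p = 2.42e-13). RBPJ itself, which carries the complex to DNA, was chosen after its values were seen and rose, at 276 ± 5.44 CPM in MDA231-LN and 244 ± 7.23 CPM in the parental line (0.18 ± 0.05; edgeR adjusted p = 0.00531). The other 2 risers, also named after their values were seen, were the deacetylase gene HDAC1 (0.53 ± 0.05; edgeR adjusted p = 2.75e-09) and the coactivator gene MAML3 (0.88 ± 0.26; edgeR adjusted p = 0.0039), and 55.7% of the exons of MAML3 lie inside another gene.

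Genes described as Notch targets in other settings went both ways. Of 16 tested, 8 rose, 3 fell and 5 did not pass, with a median log2 fold change of 0.14, and 2 of the 8 that rose, NOTCH3 and JAG1, are also counted among the ligands and receptors. Among those that rose at least 2-fold, the 3 with the smallest adjusted p were IL7R, a cytokine receptor gene (52.3 ± 2.25 CPM in MDA231-LN and 16.7 ± 1.28 CPM in the parental line; edgeR adjusted p = 2.32e-14), LGR5, a stem cell receptor gene (10.0 ± 1.60 and 1.18 ± 0.599 CPM; edgeR adjusted p = 1.02e-10), and DTX4, which encodes a Deltex ubiquitin ligase (2.62 ± 0.274 and 0.262 ± 0.200 CPM; edgeR adjusted p = 1.69e-06). These values are means with SD over 3 libraries, MDA231-LN first in each pair. The 3 that fell were MYC, CCND1 and BCL2, which were named after their values were seen, with log2 fold changes of -0.56 ± 0.07, -0.63 ± 0.05 and -0.95 ± 0.12 (SE). For MYC 64.3% of the exonic bases lie inside another gene.

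HES proteins repress through Groucho/TLE corepressors and can be held back by ID proteins, helix-loop-helix proteins without a DNA-binding domain. Of 4 tested TLE genes, TLE2 rose (9.41 ± 0.282 CPM in MDA231-LN and 4.13 ± 0.370 CPM in the parental line, SD, n = 3 each; edgeR adjusted p = 1.66e-06), TLE1 fell (57.0 ± 2.12 and 70.4 ± 3.70 CPM; edgeR adjusted p = 0.000566; named after its values were seen) and 2 did not pass. All 4 ID genes rose, with a median log2 fold change of 2.24. ID2 was at 5.86 ± 0.885 CPM in MDA231-LN and 0.131 ± 0.134 CPM in the parental line (edgeR adjusted p = 6.67e-11), ID3 at 12.1 ± 1.14 and 2.16 ± 0.759 CPM (adjusted p = 9.35e-11), and ID4 at 4.66 ± 0.365 and 1.15 ± 0.218 CPM (adjusted p = 1.09e-06). ID1 rose less (log2 fold change 0.35 ± 0.12, SE; edgeR adjusted p = 0.0098). For ID4 and ID2, 37.1% and 25.4% of the exonic bases lie inside another gene.

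Of 10 genes known to be repressed by HES1, mostly in mouse, only 3 could be tested. The proneural genes NEUROG1, NEUROG3, NEUROD1 and NEUROD4 had 0 counts in every library, and 93.6% of the exonic bases of NEUROD1 lie inside another gene. CDKN1B, a cell cycle inhibitor gene, was at 32.5 ± 0.705 CPM in MDA231-LN and 51.2 ± 2.63 CPM in the parental line (SD, n = 3 each; log2 fold change -0.66 ± 0.08, SE; edgeR adjusted p = 8.58e-08). CDKN1C, a related inhibitor gene, rose (0.36 ± 0.13; edgeR adjusted p = 0.0212) with overlapping libraries, and DLL1, given above, is also on this list. CDKN1B and CDKN1C were named after their values were seen. With DESeq2, 1 gene of this list rose in place of 2.

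BHLHE40 and BHLHE41 belong to the circadian clock, so its other genes were examined. Of 17 tested clock genes 9 rose, 2 fell and 6 did not pass, with a median log2 fold change of 0.43. The 2 that fell, NPAS2 and CRY1, were named after their values were seen (-0.91 ± 0.06 and -0.33 ± 0.07, SE). PER3, a clock repressor gene, was at 27.2 ± 2.43 CPM in MDA231-LN and 10.5 ± 2.54 CPM in the parental line (SD, n = 3 each; edgeR adjusted p = 1.69e-09), and 40.0% of its exonic sequence lies inside another gene. HLF, which encodes a PAR bZIP output factor of the clock, was at 4.38 ± 1.29 and 0.138 ± 0.128 CPM (edgeR adjusted p = 3.27e-09). RORA, a nuclear receptor gene, was at 4.14 ± 0.351 and 0.135 ± 0.124 CPM (edgeR adjusted p = 2e-09), but 90.8% of its exonic bases lie inside another gene.

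Hypoxia-induced genes, examined because hypoxia induces BHLHE40 and BHLHE41, went both ways. Of 13 tested, 6 rose, 5 fell and 2 did not pass, with a median log2 fold change of 0.16. The 5 that fell, named after their values were seen, were PGK1, NDRG1, KDM3A, ADM and BNIP3, with log2 fold changes of -0.77 to -0.27. EGLN3, an oxygen-sensing hydroxylase gene, was at 17.0 ± 0.392 CPM in MDA231-LN and 4.89 ± 1.47 CPM in the parental line (SD, n = 3 each; edgeR adjusted p = 5.53e-10). CA9, a carbonic anhydrase gene, had 183 counts in MDA231-LN and 3 in the parental line, a ratio of 54.4 (95% exact counting interval 18.3 to 266). For CA9, 38.5% of the exonic bases lie inside another gene.

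**Figure D5:**
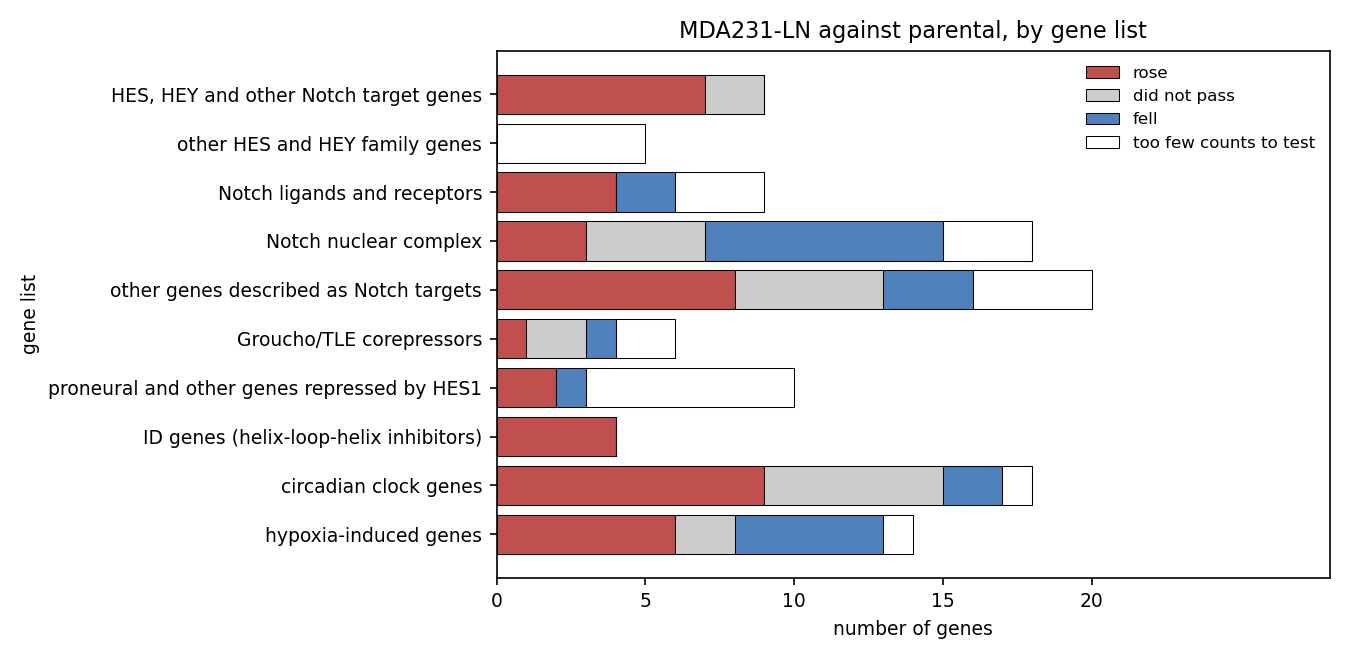
Number of genes in each list that rose, did not pass, fell or had too few counts to be tested, MDA231-LN against parental. Among the 9 Notch target genes 7 rose and 0 fell, against 31.6% rising and 31.2% falling of all tested genes; all 4 ID genes rose, and the nuclear complex had 8 falling and 3 rising (3 and 3 with upper-quartile scaling).

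For the 2 genes with the highest level per length, the genes whose pattern over the 6 libraries was most alike were found among 10118 tested genes with a mean of at least 5 CPM. The measure was the root mean square difference between centred log2 CPM values. The nearest to HES1 were ZNF714 (0.0218) and ATP5F1D (0.0262), with log2 fold changes of 0.85 and 0.87. The nearest to BHLHE40 were HDDC2 (0.0105) and TRIM41 (0.0267), with log2 fold changes of 0.24 and 0.22. With 6 libraries in 2 lines, likeness mostly means a similar difference between the lines.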

How the data were processed

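RNA of 2 cell lines, 3 libraries each, was analysed. Reads were aligned to GRCh38 with STAR, per the submitters' processing notes, its version not given in the sources used here; DESeq2 is also named there. The deposited values are raw counts of fragments per gene. Per the file headers, the counter was featureCounts 2.0.1, run over whole gene bodies (introns included) of Ensembl 105. Per the file headers, strand was ignored and fragments touching more than 1 gene or aligning to several places were left out, so overlapped genes are undercounted and antisense partners cannot be told apart.

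Symbols were found for 61369 of 61541 genes. The test was edgeR's quasi-likelihood test (edgeR 4.0.16, R 4.3.3) on genes kept by filterByExpr and scaled by TMM, with Benjamini-Hochberg adjustment over 14176 genes. The SE of a log2 fold change is its size divided by the square root of F. The alternatives changed the scaling (RLE, upper quartile), the filter (none, or 1 CPM in 3 libraries), the tool (DESeq2 1.42.0, or voom of limma 3.58.1) or the threshold (adjusted p under 0.01), added a replicate block, or dropped 1 library at a time. The fit was tested on simulated data.

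The genes and lists were chosen with earlier results of these data known. Besides the 9 genes, up to 3 genes per list with the smallest adjusted p among those called and changed at least 2-fold were named, otherwise 1, and always JAG1. Promoters came from RefSeq, for 8 of the 9 genes, and exonic overlap from GENCODE 29. Python 3.11.15, pandas 2.3.3 and matplotlib 3.10.9 served the rest. Some genes of the lists are not reported here by name.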

Additional observations from a re-analysis of the deposited data

How the results depend on the processing

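Over 14 alternatives the direction of each of the 9 genes held, and HES1, HES7, HEYL, NRARP, BHLHE40 and BHLHE41 passed in all of them, while HES4 and HEY1 passed in none. HES2 (log2 fold change 0.45) was lost with DESeq2 (0.45, adjusted p = 0.0649) and at an adjusted p under 0.01 (0.45), and leaving out 1 library gave 0.37 to 0.51; the cause was not tested. The number of the 9 genes that rose was 6 or 7 throughout, and 0 fell. Over all genes 4128 to 4532 rose and 4128 to 4381 fell when 1 library was left out, and upper-quartile scaling gave 5415 and 3603, against 4482 and 4422. With the replicate number as a block 4325 genes rose and 4266 fell, and of the 9 genes 7 rose. Deviations of same-numbered libraries had correlations of -0.0526 to 0.00241, so the numbers were not taken to pair libraries. The order of the genes by level changed rank for 8 genes in MDA231-LN and 4 in the parental line without division by length, and for 7 and 0 with exonic length. Counts were low for HEY1, HES7, HEYL, BHLHE41 and NRARP, at 6 to 59 per parental library, which limits precision. For NRARP the parental libraries were also widely spread, at 3.60, 1.65 and 0.910 CPM. The parts of depth and of spread between libraries were not tested. Counts over the other gene lists under the scaling and tool alternatives were chosen after seeing the data: with upper-quartile scaling 3 genes of the nuclear complex fell in place of 8, and 0 ligand or receptor genes in place of 2 (1 with DESeq2), while 2 TLE genes rose in place of 1, as with DESeq2.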

Other observations

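The nearest tested neighbours of some of these genes, named by position, also differed between the lines. ESPN, which encodes an actin-bundling protein, begins 0.106 kb from HES2 and rose (log2 fold change 1.97 ± 0.28, SE; edgeR quasi-likelihood, adjusted p = 7.09e-07), against 0.45 ± 0.17 for HES2, and ACOT7 on the other side also rose (0.17 ± 0.06; edgeR adjusted p = 0.0147). ALOXE3, a lipoxygenase gene 1.54 kb from HES7, rose (3.83 ± 0.67; edgeR adjusted p = 1.98e-05), against 1.79 ± 0.35 for HES7, and PER1 on the other side did not pass (0.19 ± 0.12; edgeR adjusted p = 0.185). LINC00887, a noncoding gene 157 kb from HES1, rose (1.77 ± 0.47; edgeR adjusted p = 0.00201), while OPA1, the nearest tested gene on the other side at 438 kb, fell (-0.49 ± 0.06; edgeR adjusted p = 2.16e-08). IL7, 957 kb from HEY1, fell (-2.19 ± 0.40; edgeR adjusted p = 2.8e-05), and the nearest tested gene on the other side, ENSG00000253238 at 498 kb, did not pass (0.21 ± 0.62; edgeR adjusted p = 0.783). On both sides of HEYL, PABPC4 (1.02 ± 0.05) and PPIE (0.86 ± 0.07) rose (edgeR adjusted p = 5.29e-15 and 9.53e-11). On both sides of NRARP, TOR4A (-0.10 ± 0.06) and EXD3 (0.04 ± 0.14) did not pass (edgeR adjusted p = 0.158 and 0.842). The counts ignore strand, so transcripts that run from one gene into the next cannot be told apart from those of the second gene.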
